A study of Homo sapiens with 33 samples.

Results

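The genes described here are 46 genes of G2 and mitosis, the last stretch of the cell cycle, followed through 33 RNA-sequencing libraries of HEK293T, a human embryonic kidney cell line, after transfection with base editors or controls. The members were chosen by name, as the rows of the deposited table of read counts whose gene is in a list of mitotic cyclins, mitotic kinases, kinesins, kinetochore and spindle genes and their regulators. All 46 were found among the 26475 genes of the table, and all 46 passed the filter on low counts that left 14613 genes for testing. The groups, of 3 libraries each, were Target-AID, an editor used for C-to-T changes, SpACE, the construct that gives the series its theme of adenine and cytosine editing together, ABEmax and miniABEmax-V82G, which are used for A-to-G changes, and nCas9, the nickase with no deaminase, each with a guide RNA called HEKsite2 and again with one called RNF2. The 11th group was GFP, which had no guide. Editor plasmids also encoded EGFP through P2A, and cells of all 11 groups were sorted for GFP signal 36 to 40 h after transfection. The protocol gives 37.5 µg of editor plasmid and 12.5 µg of guide plasmid, with no separate amounts for GFP. HEK293T carries the large T antigen of a simian virus, which binds the retinoblastoma family, in every group. The labels do not say whether the 3 libraries of a group came from separate transfections, so p-values measure the spread between these libraries, which may be technical.

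Passage from G2 through mitosis is driven by cyclin B bound to CDK1, and the genes needed for it are transcribed in a late wave of the cycle. In G1 and in resting cells the DREAM complex holds these genes down, and later the MuvB core works with B-MYB and FOXM1 to switch them on. The complex reads a promoter element called the cell cycle genes homology region (CHR), and nearby CCAAT boxes are bound by NF-Y. After anaphase the same genes fall silent and many of the proteins are destroyed through the anaphase-promoting complex.

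The promoters of 4 members are shown because the data below turn on these genes. They are RefSeq sequence of GRCh38.p14, 250 bases before the start of a RefSeq transcript, written 5′ to 3′ on the gene's own strand, and capitals mark TTTGAA (the CHR letters) and the CCAAT box read on either strand (CCAAT or ATTGG). The TOP2A window is chr17:40417897-40418146 on the minus strand, CDC20 is chr1:43358731-43358980 on the plus strand, CCNF is chr16:2429197-2429446 on the plus strand and CCNB1 is chr5:69166900-69167149 on the plus strand. The GENCODE annotation puts the outermost start of each of these genes inside the window (TOP2A at 40417950, CDC20 at 43358955, CCNF at 2429394 and CCNB1 at 69167010), so before the start here means before the RefSeq start.
TOP2A: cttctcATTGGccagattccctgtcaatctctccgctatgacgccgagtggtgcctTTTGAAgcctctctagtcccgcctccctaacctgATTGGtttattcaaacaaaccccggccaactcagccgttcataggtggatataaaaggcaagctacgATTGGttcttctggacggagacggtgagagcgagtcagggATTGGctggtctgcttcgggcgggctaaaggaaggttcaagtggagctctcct
CDC20: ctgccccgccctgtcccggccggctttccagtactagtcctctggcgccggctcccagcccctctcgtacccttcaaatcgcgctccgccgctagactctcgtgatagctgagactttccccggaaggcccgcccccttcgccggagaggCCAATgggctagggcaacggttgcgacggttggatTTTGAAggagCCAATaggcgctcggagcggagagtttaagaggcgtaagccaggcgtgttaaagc
CCNF: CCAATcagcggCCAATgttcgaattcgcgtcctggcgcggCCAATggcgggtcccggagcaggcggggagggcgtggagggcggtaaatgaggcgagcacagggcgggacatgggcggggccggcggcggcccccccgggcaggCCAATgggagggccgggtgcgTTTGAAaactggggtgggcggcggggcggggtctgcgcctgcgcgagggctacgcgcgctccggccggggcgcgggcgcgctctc
CCNB1: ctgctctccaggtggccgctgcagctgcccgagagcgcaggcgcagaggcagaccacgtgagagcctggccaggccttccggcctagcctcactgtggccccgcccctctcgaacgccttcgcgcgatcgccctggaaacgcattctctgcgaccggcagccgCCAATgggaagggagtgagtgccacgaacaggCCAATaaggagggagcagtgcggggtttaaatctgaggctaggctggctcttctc

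TOP2A, the DNA topoisomerase that untangles sister chromatids, had 1 TTTGAA on the gene's strand and 4 CCAAT boxes. CDC20, which activates the anaphase-promoting complex, had 1 and 2. CCNF, the F-box cyclin F, had 1 and 4, and CCNB1, cyclin B1, had 0 and 2. No TTTGAA shares a letter with a CCAAT box in these windows. RefSeq promoters were matched for 40 of the 46 members, and those of AURKA, FOXM1, TPX2, UBE2C, BIRC5 and TTK were not. TTTGAA on the gene's strand was found in 22 of the 40 (55.0%), against 8.86% of 27305 genes with promoter windows of the same length. On either strand it was found in 60.0% of the members and 16.1% of all genes, and a CCAAT box on either strand in 87.5% and 37.0%. Both elements stood together in 50.0% of the members and 3.18% of all genes. The list was chosen by function, so this is a description of its members and no test, and a match of letters is not a bound site.

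Among the members, levels per length spanned a wide range in the GFP libraries. Levels are given as CPM, reads scaled to a library of 1000000. On the scale of CPM per 1000 bases of annotated exon, TOP2A was highest at 184, then CCNB1 at 109 and CDC20 at 97.7, while CDC25B, a phosphatase that activates CDK1, stood at 8.61 and CDCA3, a trigger of mitotic entry, at 5.89. The lowest member still averaged 23.5 CPM over all libraries, so each member rested on 148 or more reads in every library. Summed over the 46 genes, the 6 Target-AID libraries lay between 6229 and 6528 CPM, those of SpACE between 6782 and 7430, of ABEmax between 6675 and 7150, of miniABEmax-V82G between 6761 and 6979 and of nCas9 between 6782 and 7154, while the 3 GFP libraries lay between 8928 and 9064. The 3 GFP libraries were above all 30 others, and the 6 Target-AID libraries were below all the rest.

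Library totals were 6790209 to 11200406 counts. The 3 GFP libraries, at 9681156 to 11200406, were deeper than most of the 30 others, at 6790209 to 9913306, and had lower TMM scaling factors, 0.937 to 0.950 against 0.968 to 1.05. In the third library of Target-AID, with either guide, counts differed from the other libraries of its group by more than elsewhere: the chi-square per degree of freedom was 9.92 to 20.7 in the 4 pairs that hold it and 1.40 to 5.02 in the 29 other replicate pairs, so no pair looked like a library deposited in duplicate. Of 6 markers of HEK293T, 5 were detected in every library (NEFL had 403 to 817 counts), and PAX2 had 0 to 8. Of the markers of other lineages, PTPRC had at most 1 count in a library, CD3E 2 and ALB 3. The 3 liver markers summed to 13 to 21 counts in Target-AID and 0 to 7 in the others, with SERPINA1 at up to 20 in a library, and their part in the results was not tested. The 3 fibroblast markers COL1A1, COL3A1 and PDGFRB, which lines of this origin also express, summed to 83 to 142 counts in the 30 other libraries and 163 to 212 in GFP, and their part in the differences from GFP was not tested. Annotated exons of 19 members share bases with another gene, over 10% of the exon bases in BUB1B, FOXM1, NUSAP1, PLK1 and PRC1, and PTTG1 has near-identical retrocopies; the strand setting of the counting is not given in the sources used here, so reads of these genes and their neighbours may be mixed.

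Against GFP, the nickase alone carried a lower level of most of these genes. In nCas9 with HEKsite2, 36 of the 46 fell and 1 rose, and in nCas9 with RNF2, 34 fell and 1 rose, by the quasi-likelihood F-test of edgeR at an adjusted p under 0.05 over all tested genes. Over all tested genes 18.8% fell and 19.6% rose in the HEKsite2 comparison, and 20.5% fell and 21.0% rose in the RNF2 comparison. Among the 7671 genes at or above the level of the lowest member, 26.6% and 30.0% fell, beside 78.3% and 73.9% of the members. The median log2 fold change of the members was -0.36 with HEKsite2 and -0.35 with RNF2, beside medians of 0.00 and 0.01 over all tested genes. Both comparisons use the same 3 GFP libraries. The groups differ in the expressed protein and in the guide, and these cannot be told apart here. In these pools of sorted cells, fewer cells in G2 or mitosis and less RNA of these genes per cell cannot be told apart either.

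The cyclin and kinase at the centre of the programme were lower in both nCas9 groups. CCNB1 had 239.9, 217 and 217 CPM in nCas9 with HEKsite2 and 217, 218 and 213 CPM in nCas9 with RNF2, against 301, 270.1 and 267 CPM in GFP. All 6 nCas9 libraries were below all 3 GFP libraries, with log2 fold changes of -0.32, SE 0.06, adjusted p = 0.000109 and -0.37, SE 0.06, adjusted p = 8.87e-06. CDK1, the kinase partner of cyclin B, had 156, 136 and 156 CPM and 151, 163 and 149 CPM in the same nCas9 groups, against 192, 201 and 202 CPM in GFP. It fell by 0.41 and 0.36 on the log2 scale (adjusted p = 1.24e-05 and 6.48e-05), again with no overlap.

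PLK1, a kinase that acts at mitotic entry, centrosomes and kinetochores, had 83.9, 85.1 and 83.2 CPM in nCas9 with HEKsite2 and 90.9, 90.6 and 99.0 CPM with RNF2, against 125, 119 and 117 CPM in GFP. It fell in both comparisons (log2 fold changes -0.52, SE 0.06, adjusted p = 1.11e-08 and -0.36, SE 0.06, adjusted p = 5.70e-06). AURKA, the centrosomal Aurora kinase, had 96.4, 96.7 and 90.8 CPM and 100.1, 101 and 102 CPM, against 118, 112 and 123 CPM in GFP. It fell by 0.32 (adjusted p = 0.000239) with HEKsite2 and by 0.22 (adjusted p = 0.00702) with RNF2 on the log2 scale, and the second of these calls is lost when libraries are scaled by total counts alone (adjusted p = 0.147). NEK2, a centrosome kinase, and TPX2, the spindle protein that activates Aurora A, fell in both groups as well.

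**Figure D1:**
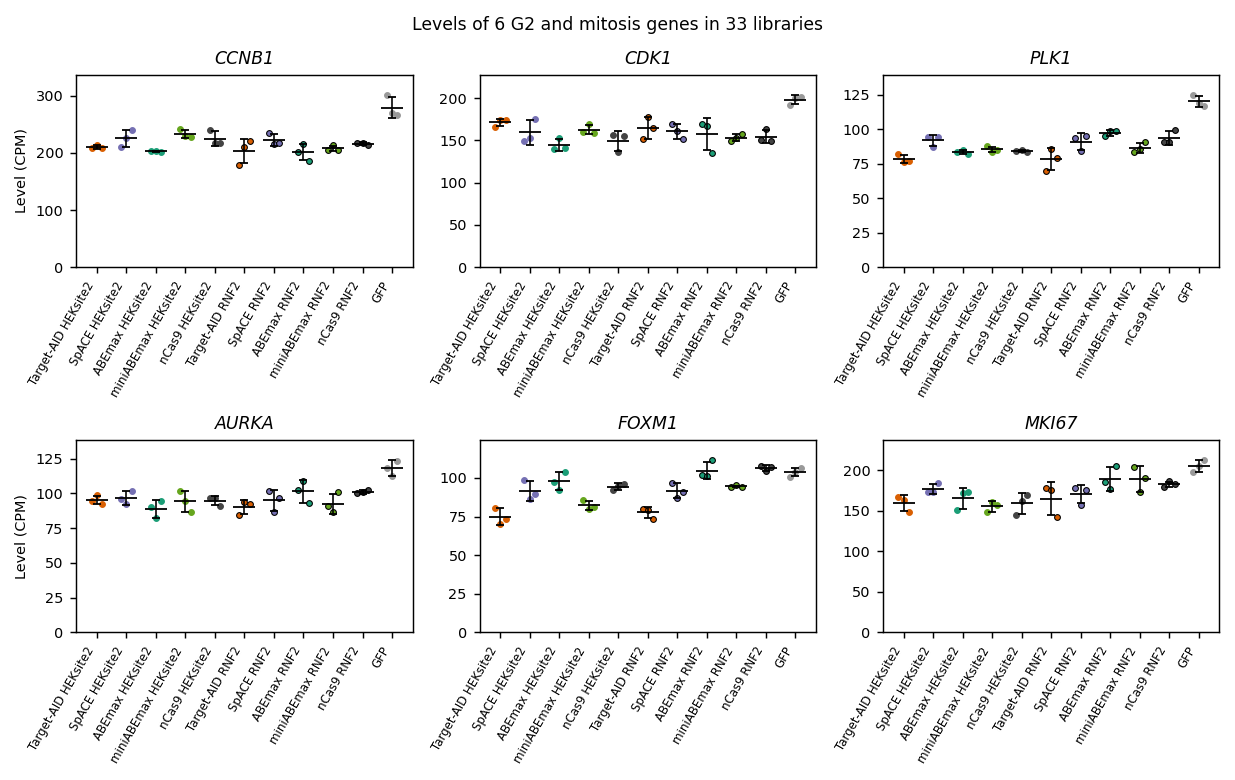
Level in CPM of 6 genes, 1 panel each, in every library of the 11 groups. Points are libraries (black outline: RNF2 guide), and the bar and whiskers are the mean ± SD of 3; for CCNB1, CDK1, PLK1 and AURKA every GFP library is above every other library, while FOXM1 in GFP overlaps nCas9 with RNF2.

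The transcription factor was called with neither guide, and the proliferation marker was called lower with HEKsite2 only. FOXM1, which activates late cell cycle promoters, had 92.2, 94.6 and 96.3 CPM in nCas9 with HEKsite2 and 108, 104 and 107 CPM with RNF2, against 101, 104 and 106 CPM in GFP. Neither difference passed the test (log2 fold changes -0.14, SE 0.06, adjusted p = 0.0704 and 0.04, SE 0.06, adjusted p = 0.655). MKI67, which coats mitotic chromosomes and is read as Ki-67 in the clinic, had 145, 163 and 169.6 CPM and 180.0, 186 and 183 CPM in nCas9, against 198, 205 and 212 CPM in GFP. It fell with HEKsite2 (-0.36, SE 0.07, adjusted p = 0.000126), and with RNF2 the log2 fold change of -0.16, SE 0.07, adjusted p = 0.0727 missed the threshold, which it passes with no filter on low counts (0.0258) and with only the groups compared in the fit (0.00982).

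The members with the smallest p fell further. TOP2A had 747, 696 and 731 CPM in nCas9 with HEKsite2 and 709, 648 and 651 CPM with RNF2, against 1145, 1227 and 1183 CPM in GFP. Its log2 fold changes were -0.71, SE 0.06, adjusted p = 1.98e-11 and -0.82, SE 0.06, adjusted p = 2.72e-13, so the level fell by 38.8% and 43.5%. TTK, the MPS1 kinase of the spindle checkpoint, had 134, 125 and 126 CPM and 116, 121 and 115 CPM, against 204, 202 and 203 CPM in GFP. It fell by 0.66 and 0.79 on the log2 scale (adjusted p = 3.97e-12 and 2.58e-14), with all 6 nCas9 libraries below the narrow range of GFP.

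Several microtubule motors and spindle proteins fell with both guides, and others did not. CKAP2 (log2 fold changes 0.09 with HEKsite2 and -0.07 with RNF2) and PRC1 (-0.02 and 0.03) were not called. NUSAP1 was called lower with HEKsite2 only (-0.19 and -0.09). KIF20A, a kinesin of the central spindle, had 98.2, 95.9 and 97.8 CPM in nCas9 with HEKsite2 and 89.0, 88.8 and 87.9 CPM with RNF2, against 155, 142 and 138 CPM in GFP (log2 fold changes -0.58, SE 0.06, adjusted p = 1.24e-10 and -0.71, SE 0.06, adjusted p = 4.17e-13). KIF11, the motor that pushes spindle poles apart, had 211, 207 and 193 CPM and 209, 206 and 188 CPM, against 305, 308 and 296 CPM in GFP, and fell by 0.57 and 0.59 on the log2 scale (adjusted p = 1.05e-10 and 3.65e-11). In KIF14, a kinesin of cytokinesis, the levels were 115, 106 and 109 CPM with HEKsite2 and 97.0, 96.5 and 94.4 CPM with RNF2, against 179, 177 and 172 CPM in GFP. The RNF2 value, -0.88, SE 0.07, adjusted p = 7.00e-13, was the largest fall of any member in these comparisons, and the HEKsite2 value was -0.68, SE 0.07, adjusted p = 4.68e-10. HMMR, which links microtubules at the spindle poles, had 94.3, 96.0 and 96.6 CPM and 82.6, 89.3 and 89.2 CPM, against 151, 156 and 152 CPM in GFP, and DLGAP5, which stabilises kinetochore fibres, had 157, 136 and 138 CPM and 137, 140.3 and 129 CPM, against 237, 219.9 and 222 CPM. HMMR fell by 0.68 and 0.81 and DLGAP5 by 0.66 and 0.74 on the log2 scale (adjusted p = 2.60e-10, 2.02e-12, 3.01e-11 and 8.40e-13).

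By role, all 4 spindle checkpoint members (BUB1, BUB1B, TTK and MAD2L1), all 4 mitotic kinases and their activator (PLK1, AURKA, NEK2 and TPX2) and both cytokinesis members (ANLN and ECT2) fell with either guide. Of 7 mitotic kinesins 6 fell with either guide, with medians of -0.54 (HEKsite2) and -0.44 (RNF2), and KIF2C, a microtubule depolymeriser, did not pass (-0.02 and -0.01). Of 4 centromere and kinetochore members 3 fell, CENPE, CENPF and CENPA, while HJURP, the chaperone that loads CENPA, had 0.03 and 0.16. Among the 5 genes of anaphase and protein destruction, all fell with HEKsite2 and 4 with RNF2, where CDCA3 had -0.08. The chromosomal passenger complex was split: INCENP, its scaffold, and CDCA8 (Borealin) fell with either guide, and AURKB, its kinase, with -0.07 (HEKsite2) and 0.01 (RNF2), and BIRC5 (survivin), with 0.01 and 0.05, were not called. Of 8 cyclins and entry regulators 4 fell with HEKsite2 and 5 with RNF2, and 1 rose with each guide.

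That 1 gene was CCNF, which marks proteins for destruction in G2 and rose in both nCas9 groups. It had 138, 142 and 137 CPM in nCas9 with HEKsite2 and 164, 152 and 169 CPM with RNF2, against 120.1, 122 and 124 CPM in GFP. All 6 nCas9 libraries were above the 3 GFP libraries, with log2 fold changes of 0.18, SE 0.07, adjusted p = 0.0309 and 0.41, SE 0.07, adjusted p = 6.74e-06. Its promoter, printed above, holds TTTGAA, as does that of TOP2A, which fell. Members with and without TTTGAA were called lower as follows: 18 of 22 with and 14 of 18 without in nCas9 with HEKsite2, and 18 of 22 and 12 of 18 with RNF2. With total counts as the only scaling, which moves the median of all genes by 0.07 (HEKsite2) and 0.11 (RNF2) on the log2 scale, 35 and 28 members were called lower and 2 higher in each. The shares of all tested genes called under that scaling are not given here.

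**Figure D2:**
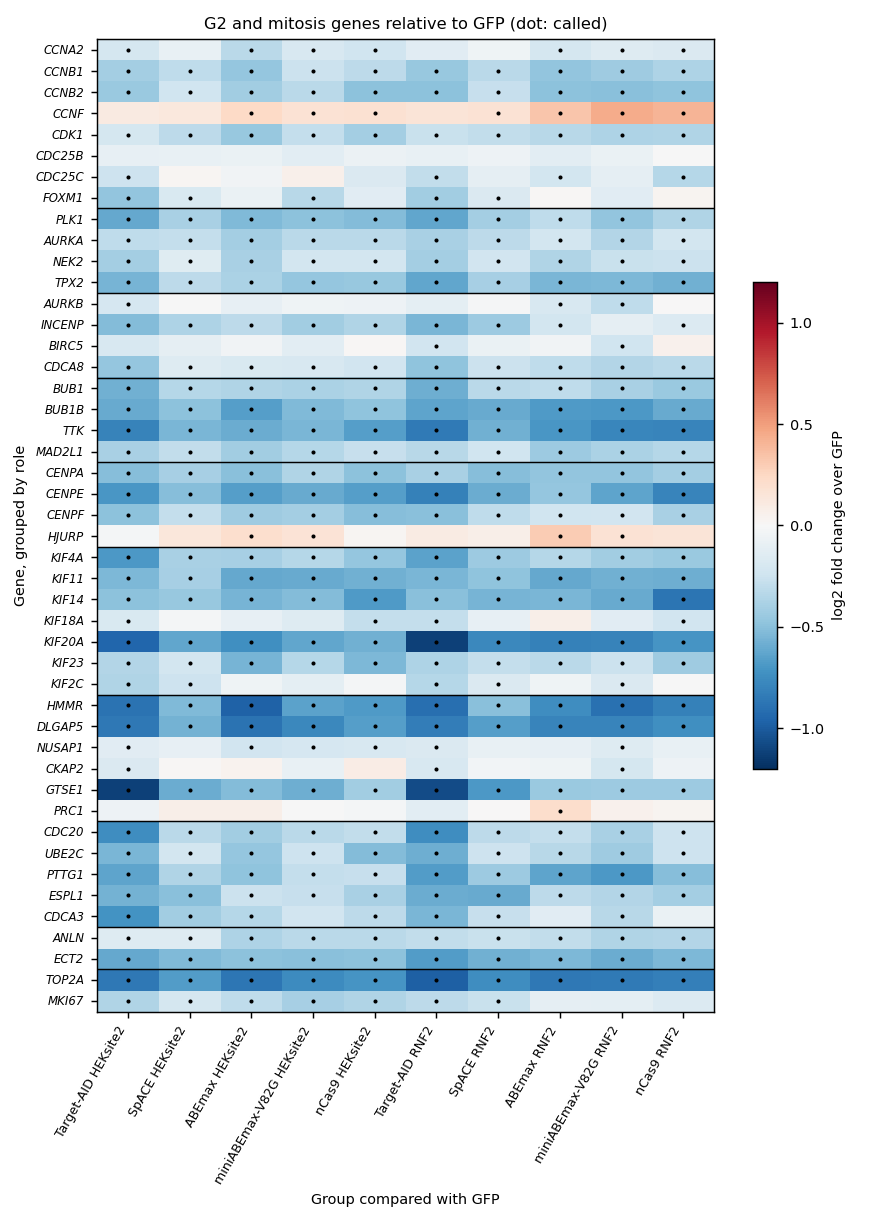
Fitted log2 fold change over GFP of the 46 genes (rows, in blocks by role) in the 10 other groups (columns), with a dot where the adjusted p is under 0.05. Blue is lower and red is higher than GFP: 30 rows are blue and dotted in all 10 columns, and the red rows are mainly CCNF and HJURP.

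Every editor group was set against GFP as well, with the 3 GFP libraries shared by all of these comparisons. Target-AID had 41 members lower with HEKsite2 (21.8% of all tested genes were lower) and 40 lower with RNF2 (21.5%), and 0 higher in either (24.6% of all genes higher in each). SpACE had 35 lower with either guide (18.2% and 19.0%), with 0 higher with HEKsite2 (18.5%) and 1 higher with RNF2 (18.9%). ABEmax had 35 and 34 lower (23.2% and 24.4%) and 2 and 3 higher (23.5% and 25.2%), and miniABEmax-V82G had 35 and 37 lower (19.8% and 23.5%) and 2 higher with either guide (20.0% and 23.5%), with the HEKsite2 value given before that of RNF2 in each pair.

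Counted over the 10 groups other than GFP, 30 members were lower than GFP in all 10, 12 were lower in 1 to 9 and 4 in none. All 10 comparisons share the GFP libraries, and the matching count over all tested genes was not made. How unusual these counts are is therefore not known. Those 4 were CCNF, HJURP, PRC1, which bundles antiparallel microtubules, and CDC25B. CCNF was called higher in 7 groups, HJURP in 4 and PRC1 in 1, and CDC25B stayed between -0.13 and 0.00 in all 10. BIRC5 was lower in 2 groups, AURKB and CKAP2, a spindle-associated protein, in 3 each, and FOXM1 in 5. A 2-fold difference was reached only in Target-AID, by GTSE1, a G2 protein that binds microtubules and p53, at -1.12 with HEKsite2 and -1.07 with RNF2, and by KIF20A at -1.12 with RNF2.

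With nCas9 of the same guide as the baseline, Target-AID was the editor with the most members called. With HEKsite2, 18 of 46 fell and 4 rose, while 19.1% of all tested genes fell and 21.5% rose. With RNF2, 16 fell and 1 rose, while 15.8% of all genes fell and 19.4% rose. Among genes at or above the lowest member's level 26.8% and 20.4% fell, beside 39.1% and 34.8% of the members. The members' median log2 fold change was -0.11 and -0.13, beside 0.00 and -0.01 over all genes, and no member changed 2-fold.

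GTSE1 moved most in Target-AID. It had 51.5, 47.2 and 49.7 CPM in Target-AID with HEKsite2, against 84.3, 79.4 and 77.4 CPM in nCas9 with HEKsite2 (-0.70, SE 0.09, adjusted p = 1.72e-08). With RNF2 it had 44.0, 56.2 and 53.0 CPM in Target-AID, against 77.5, 75.0 and 86.3 CPM in nCas9 (-0.64, SE 0.09, adjusted p = 1.44e-07). The groups did not overlap with either guide, and the level fell by 38.5% and 35.8% in Target-AID.

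CDC20 and KIF20A followed. CDC20 had 127, 115 and 115 CPM in Target-AID with HEKsite2, against 170.5, 159 and 156 CPM in nCas9, and 104, 116 and 137 CPM in Target-AID with RNF2, against 166, 164 and 174 CPM in nCas9. Its log2 fold changes were -0.44, SE 0.07, adjusted p = 5.34e-06 and -0.50, SE 0.07, adjusted p = 8.58e-07, and in Target-AID with RNF2 the 3 libraries were spread more widely than in nCas9. KIF20A had 73.9, 74.0 and 77.8 CPM in Target-AID with HEKsite2, against 98.2, 95.9 and 97.8 CPM in nCas9, and 68.1, 65.9 and 66.2 CPM in Target-AID with RNF2, against 89.0, 88.8 and 87.9 CPM in nCas9. It fell by 0.37 and 0.41 on the log2 scale (adjusted p = 1.99e-06 and 6.86e-07).

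FOXM1, which was not called between nCas9 and GFP, fell in Target-AID. It had 80.8, 70.3 and 73.2 CPM with HEKsite2, against 92.2, 94.6 and 96.3 CPM in nCas9, and 79.8, 79.5 and 73.6 CPM with RNF2, against 108, 104 and 107 CPM in nCas9 (log2 fold changes -0.34, SE 0.06, adjusted p = 2.78e-05 and -0.45, SE 0.06, adjusted p = 1.48e-07). KIF2C, likewise not called between nCas9 and GFP, had 87.2, 90.3 and 88.6 CPM in Target-AID with HEKsite2, against 124, 108 and 104 CPM in nCas9, and 86.6, 90.8 and 92.4 CPM in Target-AID with RNF2, against 115, 111 and 114 CPM in nCas9. It fell by 0.34 and 0.33 on the log2 scale (adjusted p = 1.92e-05 and 2.90e-05). In both genes every Target-AID library was below every nCas9 library of the same guide.

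INCENP had 89.5, 91.1 and 77.8 CPM in Target-AID with HEKsite2, against 94.1, 94.6 and 101 CPM in nCas9, and 90.5, 87.4 and 75.6 CPM in Target-AID with RNF2, against 108, 108 and 117 CPM in nCas9. It fell with both guides (-0.16, SE 0.06, adjusted p = 0.0373 and -0.39, SE 0.06, adjusted p = 4.28e-06), and the third Target-AID library was the lowest with each guide. CKAP2 had 303, 278 and 281 CPM in Target-AID with HEKsite2, against 359.9, 343 and 334 CPM in nCas9 (-0.27, SE 0.06, adjusted p = 0.000269), and 286, 288 and 278 CPM with RNF2, against 325, 313 and 294 CPM, where the log2 fold change of -0.13, SE 0.06, adjusted p = 0.081 did not pass.

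The genes at the centre of the programme gave few calls between Target-AID and nCas9. CCNB1 had log2 fold changes of -0.09, SE 0.06, adjusted p = 0.26 with HEKsite2 and -0.09, SE 0.06, adjusted p = 0.31 with RNF2, and neither passed. CDK1 rose with HEKsite2, with 166, 174 and 174 CPM in Target-AID, against 156, 136 and 156 CPM in nCas9 (0.20, SE 0.07, adjusted p = 0.0232; the call is lost without the second nCas9 library, at 0.172, or the second or the third of Target-AID, at 0.063 and 0.0593), and with RNF2, at 152, 177 and 164 CPM in Target-AID against 151, 163 and 149 CPM, the value of 0.09, SE 0.07, adjusted p = 0.339 did not pass. PLK1 fell with RNF2, with 69.7, 85.9 and 79.0 CPM in Target-AID, against 90.9, 90.6 and 99.0 CPM in nCas9 (-0.26, SE 0.06, adjusted p = 0.00122), and with HEKsite2 had 82.05, 76.1 and 76.8 CPM, against 83.9, 85.1 and 83.2 CPM (-0.10, SE 0.06, adjusted p = 0.207). AURKA (0.01 and -0.16) and MKI67 (0.01 and -0.15) were not called with either guide, although AURKA with RNF2 passes when libraries are scaled by total counts alone (0.0498).

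By role, 3 of the 4 passenger members, INCENP, BIRC5 and CDCA8, fell in Target-AID with both guides, and AURKB was called with neither. Of the 5 genes of anaphase and protein destruction, CDC20, CDCA3 and ESPL1, the separase that cuts cohesin, fell with both guides, PTTG1 (securin) fell with HEKsite2 and UBE2C, an ubiquitin-conjugating enzyme of the anaphase-promoting complex, with RNF2. Of 7 kinesins KIF2C, KIF20A and KIF4A fell with both guides and KIF14 rose with both. KIF14 had 125, 138 and 111 CPM in Target-AID with HEKsite2, against 115, 106 and 109 CPM in nCas9, and 134, 129.6 and 110.5 CPM in Target-AID with RNF2, against 97.0, 96.5 and 94.4 CPM in nCas9 (0.18, SE 0.07, adjusted p = 0.0351 and 0.38, SE 0.07, adjusted p = 6.04e-05), and the groups overlapped with HEKsite2 only. None of the 4 centromere and kinetochore members and neither chromosome structure member, TOP2A and MKI67, was called with either guide. BIRC5 was spread widely in Target-AID: it had 281, 247 and 325 CPM and 245, 255 and 331 CPM in Target-AID with HEKsite2 and RNF2, against 343, 329 and 308 CPM and 325, 349 and 332 CPM in nCas9, and the third Target-AID library of each overlapped nCas9.

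**Figure D3:**
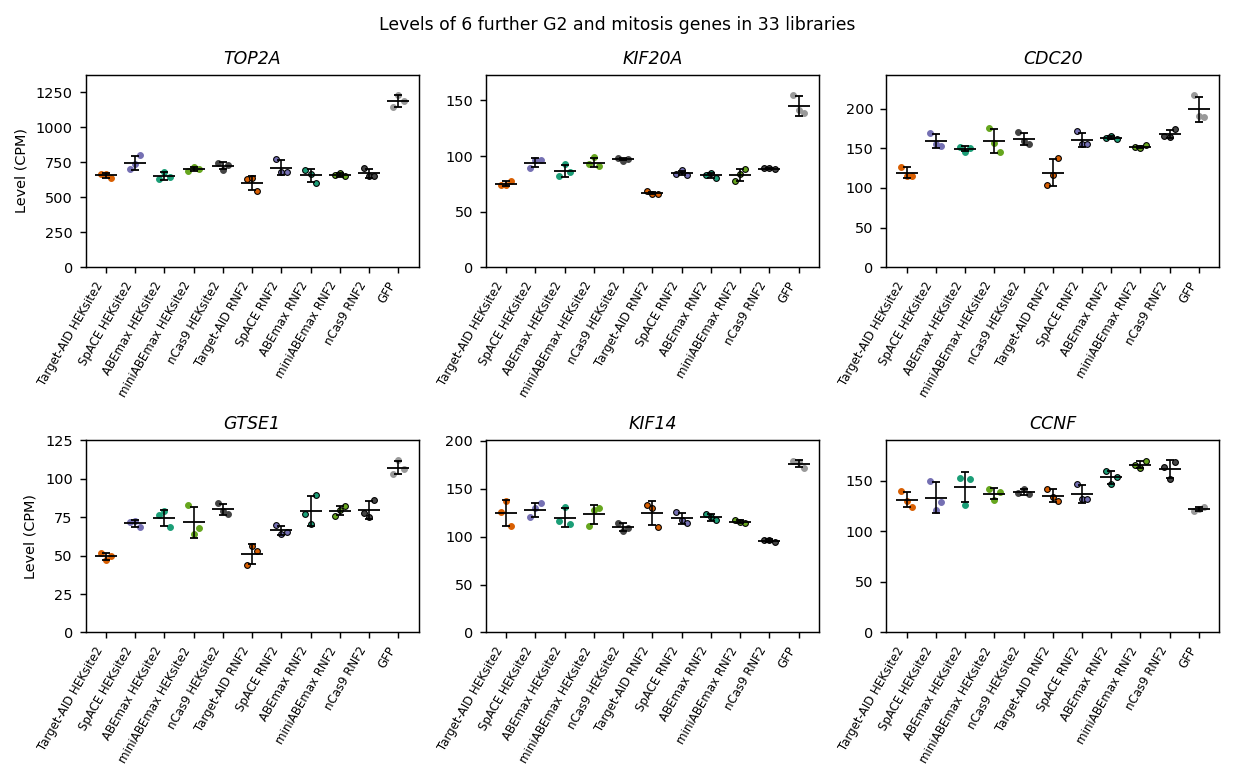
Level in CPM of 6 further genes in every library, drawn as in the plot of CCNB1 to MKI67. CDC20, GTSE1 and KIF20A are lowest in the 2 Target-AID groups, KIF14 is lowest in nCas9 with RNF2, and CCNF is lowest in GFP, with 162 ± 8.47 CPM in nCas9 with RNF2 and a higher mean in miniABEmax-V82G with RNF2.

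The Target-AID comparisons of the 2 guides share no library. Called lower with both were 12 members, which is 66.7% of the 18 with HEKsite2 and 75.0% of the 16 with RNF2: BIRC5, BUB1, CDC20, CDCA3, CDCA8, ESPL1, FOXM1, GTSE1, INCENP, KIF20A, KIF2C and KIF4A. Across the 46 genes the log2 fold changes of the 2 guides had a Pearson correlation of 0.80 and a Spearman correlation of 0.73, as a description over genes that are not independent, and 31 of the 46 were negative with both guides. The same overlap and correlations over all tested genes were not computed, so this agreement may not be particular to the members. Without both of the third Target-AID libraries, 15 fell and 4 rose with HEKsite2, and 18 fell and 1 rose with RNF2. The shares of all tested genes called without these libraries are not given here.

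**Figure D4:**
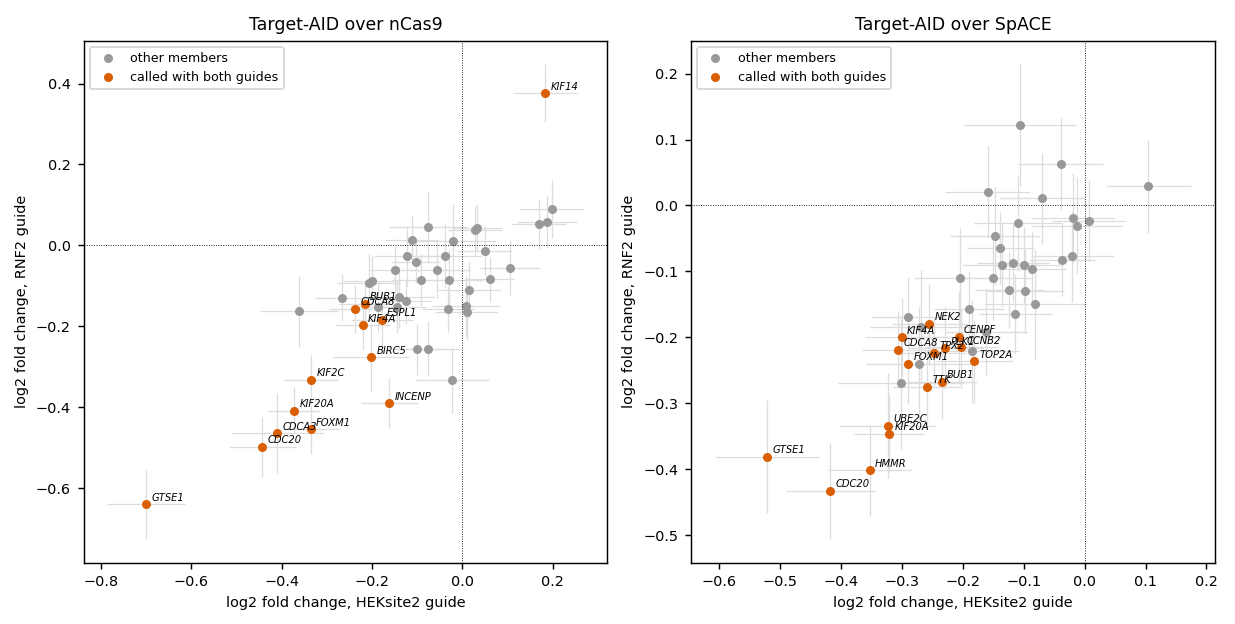
Fitted log2 fold change of the 46 genes with the HEKsite2 guide (x axis) and the RNF2 guide (y axis), for Target-AID over nCas9 (left) and Target-AID over SpACE (right), with bars of ± 1 SE. Named points were called in the same direction with both guides; GTSE1 and CDC20 lie at the lower left in both panels, and KIF14 is the named point at the upper right of the left panel.

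SpACE, set against nCas9, changed fewer members. With HEKsite2, 8 rose and 1 fell, while 10.7% of all tested genes rose and 10.2% fell, and with RNF2, 5 rose and 4 fell, while 8.03% rose and 6.68% fell. Among genes at or above the lowest member's level, 15.3% rose and 13.4% fell with HEKsite2 and 12.4% rose and 7.48% fell with RNF2, so the members' shares that rose, 17.4% and 10.9%, were near the background. The medians of the members were 0.07 and 0.02 on the log2 scale. CCNB2 (cyclin B2), KIF14 and TPX2 rose with both guides, 37.5% of the 8 and 60.0% of the 5, and no member fell with both. Without the third SpACE library 5 members are called with HEKsite2 in place of 9, and without the third nCas9 library 5 in place of 9 with RNF2.

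In SpACE with HEKsite2 the rises were led by KIF23, the kinesin of the central spindle complex, with 128, 126 and 128 CPM, against 114, 101 and 91.6 CPM in nCas9 (0.32, SE 0.07, adjusted p = 0.00041). CCNB2 had 76.7, 81.2 and 84.4 CPM, against 71.7, 65.3 and 66.2 CPM in nCas9 (0.25, SE 0.06, adjusted p = 0.00207), and KIF18A, which damps chromosome movements, had 74.8, 72.0 and 77.1 CPM, against 62.9, 59.7 and 63.3 CPM (0.27, SE 0.07, adjusted p = 0.00424). In all 3 the SpACE libraries were above every nCas9 library. UBE2C had 93.3, 89.2 and 97.6 CPM, against 78.7, 75.7 and 72.9 CPM (0.30, SE 0.08, adjusted p = 0.0063), CENPF, a large kinetochore protein, had 472, 489 and 518 CPM, against 413, 428 and 427 CPM (0.22, SE 0.07, adjusted p = 0.0187), and KIF2C, which fell, had 95.2, 95.6 and 97.2 CPM, against 124, 108 and 104 CPM (-0.22, SE 0.06, adjusted p = 0.00673). Without the first nCas9 library the adjusted p is 0.125 for KIF2C and 0.0683 for CENPF, and without the third SpACE library it is 0.0979 for CENPF.

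In SpACE with RNF2, INCENP had 89.2, 92.1 and 92.6 CPM, against 108, 108 and 117 CPM in nCas9, and fell (-0.28, SE 0.06, adjusted p = 0.00154). HMMR rose, with 103, 107 and 114 CPM, against 82.6, 89.3 and 89.2 CPM (0.31, SE 0.07, adjusted p = 0.00165), as did KIF14, with 125, 118 and 114 CPM, against 97.0, 96.5 and 94.4 CPM (0.31, SE 0.07, adjusted p = 0.00203), and TTK, with 147, 128 and 134 CPM, against 116, 121 and 115 CPM (0.22, SE 0.06, adjusted p = 0.00722). CCNF had 147, 132 and 132 CPM, against 164, 152 and 169 CPM, and FOXM1 96.6, 87.2 and 91.1 CPM, against 108, 104 and 107 CPM, and both fell (-0.24, SE 0.07, adjusted p = 0.0141 and -0.21, SE 0.06, adjusted p = 0.0121). GTSE1 was the remaining fall at -0.26. Groups did not overlap in any of these 7 genes, which were picked by the test. Over all 46 members, the SpACE libraries with RNF2 lay wholly above nCas9 in 12 and wholly below in 9. The matching share of all tested genes was not counted, so how unusual these counts are is not known. With 1 library left out the adjusted p reaches 0.0922 for TTK (the first of SpACE), 0.0761 for FOXM1 (the second of SpACE) and 0.0816 for CCNF (the third of nCas9; the first of nCas9 and the second and the third of SpACE also end the call, at 0.0525, 0.0711 and 0.0671). With no filter on low counts FOXM1 is lost as well (0.0644). CCNB1, CDK1, PLK1, AURKA and MKI67 were called with neither guide in SpACE, with log2 fold changes between -0.10 and 0.15.

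ABEmax and miniABEmax-V82G had few members called against nCas9. In ABEmax with HEKsite2, 0 rose and 3 fell (8.31% of all genes rose and 7.55% fell; scaled by total counts alone, 1 member rose and 2 fell), and with RNF2, 4 rose and 0 fell (6.51% and 4.66%). The 3 falls were HMMR, with 81.9, 78.8 and 74.1 CPM in ABEmax, against 94.3, 96.0 and 96.6 CPM in nCas9 (-0.29, SE 0.07, adjusted p = 0.00445), DLGAP5, with 124, 121 and 122 CPM, against 157, 136 and 138 CPM (-0.23, SE 0.06, adjusted p = 0.00905), and KIF20A, with 82.2, 92.9 and 85.3 CPM, against 98.2, 95.9 and 97.8 CPM (-0.16, SE 0.06, adjusted p = 0.0497), which is lost with RLE scaling (adjusted p = 0.0562), with DESeq2 (0.0785) and with no filter (0.11). Without the first nCas9 library 1 member is called with HEKsite2, since DLGAP5 (0.126) and KIF20A (0.138) no longer pass; KIF20A is also lost without the second or the third of nCas9 (0.0808 and 0.0996) or the first or the third of ABEmax (0.212 and 0.158). With RNF2 the rises were KIF14, with 124, 120.3 and 117 CPM, against 97.0, 96.5 and 94.4 CPM (0.33, SE 0.07, adjusted p = 0.00216), KIF18A, with 84.7, 80.7 and 73.0 CPM, against 65.4, 63.6 and 64.4 CPM (0.30, SE 0.07, adjusted p = 0.00254), CENPE, the kinetochore motor, with 186, 186 and 184 CPM, against 150.0, 148 and 147 CPM (0.32, SE 0.08, adjusted p = 0.00524), and PRC1, with 442, 431 and 411 CPM, against 397, 365 and 375 CPM (0.17, SE 0.06, adjusted p = 0.0429). None of these 7 genes overlapped between its groups, but the genes were picked by the test. Over all 46 members, the ABEmax libraries lay wholly above nCas9 in 3 and wholly below in 9 with HEKsite2, and in 8 and 3 with RNF2. Between the 2 nCas9 groups, where 0 members were called, 10 lay wholly above and 11 wholly below. The matching shares of all tested genes were not counted, so how unusual any of these counts is remains unknown. PRC1 is lost without the second or the third library of nCas9 (0.194 and 0.107) or the first or the second of ABEmax (0.151 and 0.104), or with no filter (0.085). Across members, the Spearman correlation of log2 fold change over nCas9 with exon length was, with RNF2, 0.50 in ABEmax and 0.51 in miniABEmax-V82G. It was 0.30 and -0.07 with HEKsite2. Target-AID and SpACE had 0.15 and 0.08 with HEKsite2 and 0.09 and 0.06 with RNF2. This was not computed over all tested genes, and the part of length in these calls was not tested.

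In miniABEmax-V82G, 2 members rose and 2 fell with HEKsite2 (5.02% of all genes rose and 5.32% fell; scaled by total counts alone, 1 member rose and 2 fell), and 1 rose and 2 fell with RNF2 (6.88% and 5.72%). With HEKsite2 UBE2C had 95.6, 94.6 and 85.3 CPM, against 78.7, 75.7 and 72.9 CPM in nCas9 (0.28, SE 0.08, adjusted p = 0.0208), and KIF23 had 112, 123 and 116 CPM, against 114, 101 and 91.6 CPM (0.20, SE 0.07, adjusted p = 0.0464), with some overlap. FOXM1 had 85.8, 79.7 and 81.0 CPM, against 92.2, 94.6 and 96.3 CPM (-0.20, SE 0.06, adjusted p = 0.0283), and CKAP2 had 319, 305 and 296 CPM, against 359.9, 343 and 334 CPM (-0.17, SE 0.06, adjusted p = 0.0459). Leaving out the second or the third nCas9 library, or the second of miniABEmax-V82G, leaves 0 members called with HEKsite2, and leaving out the third of miniABEmax-V82G leaves 1, UBE2C. UBE2C and CKAP2 are also lost without the first of miniABEmax-V82G (0.0774 and 0.0507), and CKAP2 without the first of nCas9 (0.184); over these libraries the adjusted p of the 4 genes reaches 0.0842 for UBE2C, 0.119 for FOXM1, 0.184 for CKAP2 and 0.294 for KIF23. With no filter FOXM1 (0.0729), CKAP2 (0.0949) and KIF23 (0.0742) are lost, with only the 2 groups in the fit CKAP2 (0.0543) and KIF23 (0.0604), and with total counts alone KIF23 (0.0547). With RNF2 AURKB had 68.3, 62.4 and 68.6 CPM, against 75.7, 86.4 and 85.4 CPM (-0.31, SE 0.08, adjusted p = 0.00626), BIRC5 had 279, 265 and 283 CPM, against 325, 349 and 332 CPM (-0.28, SE 0.08, adjusted p = 0.0198), and KIF14 rose with 117, 115 and 114 CPM, against 97.0, 96.5 and 94.4 CPM (0.27, SE 0.07, adjusted p = 0.0121). Without the second miniABEmax-V82G library 1 member is called with RNF2, as AURKB (0.0513) and BIRC5 (0.0895) no longer pass, and BIRC5 is also lost without the first of miniABEmax-V82G (0.0517) or the second of nCas9 (0.0962). With only these 2 groups in the fit, 5 members rose and 7 fell with RNF2. The shares of all tested genes called in that fit are not given here, so this count has no background beside it.

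**Figure D5:**
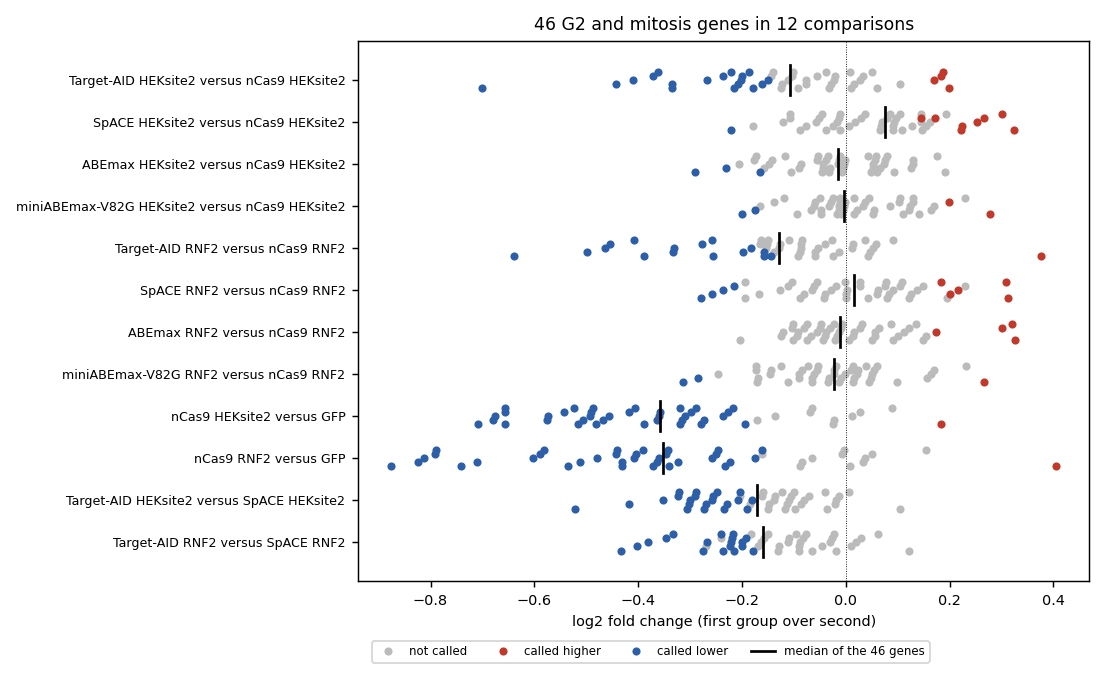
Fitted log2 fold change (x axis) of each of the 46 genes in 12 comparisons (rows); red and blue points were called higher and lower at an adjusted p under 0.05, grey points were not called, and the black line is the median of the 46. The nCas9 over GFP rows have medians of -0.36 and -0.35, the medians of the Target-AID rows lie left of 0, and those of ABEmax and miniABEmax-V82G lie near 0.

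Target-AID was then compared with SpACE directly, a contrast that uses neither nCas9 nor GFP. With HEKsite2, 21 of 46 members were lower in Target-AID and 0 higher, while 8.21% of all tested genes were lower and 10.3% higher. With RNF2, 18 were lower and 0 higher, while 6.61% of all genes were lower and 9.32% higher. Among genes at or above the lowest member's level 13.5% and 11.1% were lower. Lower with both guides were 16 members, 76.2% of the 21 and 88.9% of the 18, and 40 of the 46 log2 fold changes were negative with both. The matching overlap over all tested genes was not computed here either. The count with RNF2 depends on the libraries: it is 8 without the first SpACE library and 5 with only the 2 groups in the fit, and 22 without the third Target-AID libraries of both guides.

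GTSE1 had 51.5, 47.2 and 49.7 CPM in Target-AID with HEKsite2, against 71.9, 72.5 and 68.6 CPM in SpACE, and 44.0, 56.2 and 53.0 CPM in Target-AID with RNF2, against 69.9, 64.4 and 65.1 CPM in SpACE (-0.52, SE 0.09, adjusted p = 1.67e-05 and -0.38, SE 0.09, adjusted p = 0.00154). CDC20, whose Target-AID values are given above, had 169.9, 155 and 153 CPM in SpACE with HEKsite2 and 171, 155 and 155 CPM with RNF2 (-0.42, SE 0.07, adjusted p = 4.28e-05 and -0.43, SE 0.07, adjusted p = 2.66e-05). For KIF20A the SpACE levels were 89.1, 96.1 and 96.5 CPM and 84.2, 87.0 and 83.4 CPM (-0.32, SE 0.06, adjusted p = 6.92e-05 and -0.35, SE 0.06, adjusted p = 3.12e-05). In each of these 3 genes every Target-AID library was below every SpACE library of the same guide.

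HMMR had 77.4, 83.6 and 87.9 CPM in Target-AID with HEKsite2, against 99.4, 110.0 and 108 CPM in SpACE, and 72.1, 80.4 and 92.2 CPM in Target-AID with RNF2, against 103, 107 and 114 CPM in SpACE (-0.35, SE 0.07, adjusted p = 0.000223 and -0.40, SE 0.07, adjusted p = 3.57e-05). TTK had 109.9, 115 and 113 CPM in Target-AID with RNF2, against 147, 128 and 134 CPM in SpACE (-0.28, SE 0.06, adjusted p = 0.000494), and BUB1, the checkpoint kinase that marks centromeres, had 158, 162 and 165 CPM, against 210.4, 175 and 198 CPM (-0.27, SE 0.06, adjusted p = 0.000878), a call lost with only the 2 groups in the fit (0.0605). With HEKsite2 CDCA8 had 70.2, 74.3 and 73.1 CPM in Target-AID, against 98.9, 85.6 and 84.7 CPM in SpACE (-0.31, SE 0.06, adjusted p = 0.00016), and KIF4A, a chromosome-bound kinesin, had 98.3, 86.5 and 91.8 CPM, against 109, 111 and 119.8 CPM (-0.30, SE 0.06, adjusted p = 0.000324). These groups did not overlap. TOP2A, not called between Target-AID and nCas9, was lower than in SpACE with both guides (-0.18 and -0.24), and CCNB1 (-0.10 and -0.13), CDK1 (0.10 and 0.03) and AURKA (-0.02 and -0.08) were not called, although CCNB1 with RNF2 passes without the third Target-AID library (0.0292). FOXM1 and PLK1 were lower with both guides (-0.29, SE 0.06, adjusted p = 0.000611 and -0.24, SE 0.06, adjusted p = 0.00499 for FOXM1, -0.23, SE 0.06, adjusted p = 0.00697 and -0.22, SE 0.06, adjusted p = 0.0128 for PLK1). With RNF2 both are lost without the first SpACE library (0.0538 and 0.0732), and PLK1 also without the third of SpACE (0.0684) or the first of Target-AID (0.163). With only the 2 groups in the fit FOXM1 (0.0753) and PLK1 (0.161) are lost with RNF2.

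In the main fit the guide made no called difference to the members, though some other settings gave calls, as listed at the end. Between nCas9 with RNF2 and nCas9 with HEKsite2, edgeR called 0 members (0.602% of all genes were higher and 1.46% lower). DESeq2 called 0 as well, and with total counts as the only scaling 2 were called higher. By edgeR 13 members had an unadjusted p under 0.05. The share of all tested genes at that level is not given, here or for the tests below. The lowest adjusted p was 0.0688, for UBE2C, which had 86.4, 90.7 and 97.7 CPM with RNF2, against 78.7, 75.7 and 72.9 CPM with HEKsite2. KIF14, at 97.0, 96.5 and 94.4 CPM with RNF2, against 115, 106 and 109 CPM with HEKsite2, had a log2 fold change of -0.20, SE 0.07, adjusted p = 0.159. It was the member called higher than nCas9 by all 4 editors with RNF2, and these 4 comparisons share the same 3 nCas9 libraries. Tests of whether the effect of an editor over nCas9 differed between guides called 0 members for each of the 4 editors with edgeR and with DESeq2, with 2, 3, 3 and 4 members at an unadjusted p under 0.05 for Target-AID, SpACE, ABEmax and miniABEmax-V82G. The share of all genes called in these tests was 0.164%, 0.0274%, 0.0% and 0.0137%.

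The rest of the mitotic machinery was followed through 6 further lists with 85 tested genes. In nCas9 against GFP, 33 of the 85 fell and 12 rose with HEKsite2, and 37 fell and 15 rose with RNF2, with medians of -0.11 and -0.13. These counts and those of the shorter lists stand beside 18.8% of all tested genes lower and 19.6% higher with HEKsite2, and 20.5% lower and 21.0% higher with RNF2. Among 23 other spindle, kinesin and cytokinesis genes 15 fell and 1 rose with HEKsite2 and 14 fell and 1 rose with RNF2. DEPDC1, a mitotic phase gene of that list, had 193 ± 4.39 and 193 ± 4.14 CPM in nCas9 with HEKsite2 and RNF2, against 378 ± 5.78 CPM in GFP (means ± SD, n = 3 each), and fell by 0.97 on the log2 scale with both. Of 11 genes of cohesin and its protectors 8 fell and 1 rose with each guide, and of 8 condensin genes 3 fell and 1 rose. NCAPD2, a condensin subunit, averaged 230.3 ± 9.02 and 173 ± 6.7 CPM in nCas9, against 375 ± 3.89 CPM in GFP (SD, n = 3). It was also lower in nCas9 with RNF2 than in nCas9 with HEKsite2 (log2 fold change -0.42, SE 0.05, adjusted p = 1.52e-06), a comparison in which none of the 46 members was called. The 17 genes of the anaphase-promoting complex itself mostly did not pass: 2 fell and 1 rose with HEKsite2, and 6 fell and 2 rose with RNF2.

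Of 28 G1/S and replication genes 20 rose and 1 fell in nCas9 with HEKsite2 against GFP, and 17 rose and 2 fell with RNF2, with medians of 0.37 and 0.25, while 19.6% and 21.0% of all tested genes rose. E2F1, which drives entry into S phase, averaged 94.5 ± 0.945 and 104 ± 2.27 CPM in nCas9 with HEKsite2 and RNF2, against 43.1 ± 1.45 CPM in GFP, and rose by 1.13 (SE 0.06) and 1.27 (SE 0.06) on the log2 scale. Of 11 tested genes of checkpoint arrest 6 rose with each guide, and 0 and 2 fell. Of 15 genes of MuvB, DREAM and MYBL2, the regulators of the members, 5 rose and 2 fell with HEKsite2 and 7 rose and 1 fell with RNF2, and of 11 other mitotic regulators 3 rose and 3 fell with HEKsite2 and 3 rose and 5 fell with RNF2.

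In Target-AID against nCas9 the further mitotic lists had as many or nearly as many rises as falls: 18 of 85 rose and 18 fell with HEKsite2, and 15 rose and 17 fell with RNF2, while 21.5% and 19.4% of all tested genes rose and 19.1% and 15.8% fell. Among the 28 G1/S genes 6 rose and 7 fell with HEKsite2 and 7 rose and 5 fell with RNF2. CDC45, a helicase component of replication, stood far out, with 1270.0 ± 147 and 1162 ± 204 CPM in Target-AID with HEKsite2 and RNF2, against 154 ± 7.61 and 153 ± 5.84 CPM in nCas9 (log2 fold changes 3.05, SE 0.08, and 2.93, SE 0.08). GADD45A, a stress-induced gene linked to G2 arrest, rose in all 4 editors with each guide. With HEKsite2 it averaged 59.3 ± 3.98 CPM in Target-AID, 57.7 ± 5.04 CPM in SpACE, 56.1 ± 5.74 CPM in ABEmax and 48.3 ± 1.83 CPM in miniABEmax-V82G, against 31.0 ± 3.44 CPM in nCas9 (SD, n = 3 each). With RNF2 it averaged 52.2 ± 6.04 CPM in Target-AID, 49.7 ± 1.38 CPM in SpACE, 41.9 ± 1.63 CPM in ABEmax and 37.2 ± 2.07 CPM in miniABEmax-V82G, against 29.5 ± 2.43 CPM in nCas9. The log2 fold changes were 0.93, 0.89, 0.85 and 0.63 with HEKsite2 and 0.82, 0.75, 0.51 and 0.33 with RNF2, and the last of these (adjusted p = 0.0161) is lost without the first or the third miniABEmax-V82G library (0.0667 and 0.0626) or the third of nCas9 (0.091). The 4 comparisons of a guide share their nCas9 libraries. In GFP GADD45A averaged 29.7 ± 1.82 CPM. Genes of the same checkpoint arrest list did not all move this way. CCNG2 fell against nCas9 in SpACE with HEKsite2 and RNF2 (log2 fold changes -0.51 and -0.47) and in miniABEmax-V82G with HEKsite2 (-0.35). Its mean was lower still in Target-AID, at 26.6 CPM with HEKsite2 and 28.0 CPM with RNF2, against 44.7 and 42.2 CPM in nCas9. ABEmax had 36.9 and 39.7 CPM, and miniABEmax-V82G with RNF2 had 36.5 CPM. Only up to 4 called genes per comparison are named, so a group left out may still differ. GADD45B rose in Target-AID with HEKsite2 and RNF2 (1.15 and 1.24), and PLK2 rose in ABEmax with RNF2 (0.52). PLK2 also had a higher mean in ABEmax with HEKsite2, at 36.1 ± 5.91 CPM, against 24.2 ± 3.13 CPM in nCas9. Whether cells were arrested was not tested.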

How the data were processed

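RNA was sequenced from sorted HEK293T cells, 3 libraries for each of 11 groups, with a stranded total RNA kit, per the labels' protocols. The authors deposited raw read counts per gene, whole numbers with no normalization. STAR, GATK 3.8.1, Picard 2.7 and the build GRCh38 (hg38) are named in the submitters' processing notes. The read counter and its treatment of strand were not given in the sources used here. Columns of SpACE carry UGI in their names, which the sample labels do not mention. From the counts, edgeR 4.0.16 (R 4.3.3) was run on all 33 libraries with 1 coefficient per group and 22 residual degrees of freedom, after its default filter on low counts and TMM scaling. Comparisons used the two-sided quasi-likelihood F-test with Benjamini-Hochberg adjustment over all 14613 tested genes, a gene was called at an adjusted p under 0.05, and SE is the log2 fold change over the root of F. CPM values are counts scaled to 1000000 in the TMM-scaled library of tested genes. Totals of 6790209 to 11200406 counts set the depth, and the precision is given as the spread over libraries.

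Exon lengths and overlaps come from the GENCODE annotation of GRCh38 and promoters from RefSeq GRCh38.p14. The 46 members and the 8 lists of other genes were chosen with earlier results of these data known, so they are no independent evidence of direction. Named are CCNB1, CDK1, PLK1, AURKA, FOXM1 and MKI67, in each comparison up to 6 called members by smallest p, and up to 4 called genes of the other lists, from which a few are given; any other gene singled out was picked with its values in view. Overlap of libraries is described for named genes, many of them picked by the test, so its absence is no further evidence. The share of all tested genes without overlap was not counted. The alternatives were RLE and total-count scaling, no filter, DESeq2 1.42.0, the replicate number as a block, only the groups compared, each library left out and, added after seeing the data, both of the Target-AID replicate 3 libraries left out. On simulated counts for Target-AID with HEKsite2 against nCas9, over 14613 genes, 86% of genes changed 1.5-fold and 54% of those changed 1.25-fold were recovered. In all 200 genes were changed, 50 at each fold change, drawn from genes averaging 50 or more counts.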

Additional observations from a re-analysis of the deposited data

How the results depend on the processing

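Counts of called members in nCas9 against GFP, Target-AID against nCas9, SpACE against nCas9 and ABEmax against nCas9 stayed within 1.5 times their values under each other scaling, filter, tool, block and fit tried on all libraries. Exceptions elsewhere were miniABEmax-V82G against nCas9 with HEKsite2 (4 called; 1 with no filter, 2 with only the groups compared) and with RNF2 (3 called; 5 with the replicate block, 12 with only the groups compared), Target-AID against SpACE with RNF2 (18 called; 5 with only the groups compared), the guide in nCas9 (0 called; 2 with total counts only, 2 with no filter, 1 with the replicate block, 2 with only the groups compared) and the 4 editor-by-guide tests (0 called; 1 with no filter). The cause was not tested. Shares of all tested genes called under these other settings are not given here, so the counts have no background beside them. The replicate numbers do not clearly pair the libraries. Over all tested genes the mean correlation of deviations was 0.0246 in same-numbered pairs, with 24 of 165 above 0.1, and -0.0123 in other pairs. Over the 46 members it was 0.0425, with 68 of 165 above 0.1, and -0.0218 in other pairs. With the block, Target-AID against nCas9 had 22 and 21 members called (HEKsite2 and RNF2) and nCas9 against GFP 37 and 35.

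With 1 library left out, called members ranged over 16 to 17 (Target-AID against nCas9, HEKsite2) and 14 to 19 (RNF2), 5 to 9 with either guide for SpACE, 1 to 4 and 3 to 5 for ABEmax, 0 to 4 and 1 to 3 for miniABEmax-V82G, 35 to 37 and 32 to 35 for nCas9 against GFP, 15 to 22 and 8 to 21 for Target-AID against SpACE, 280 to 305 for the 8 editor comparisons with GFP together (302 with all libraries), and 0 to 0 for the guide in nCas9 and the editor-by-guide tests. Of 77 calls of single named genes, 19 were lost under 1 or more of the settings listed and 4 further genes passed, with 0 reversed. In the simulation for Target-AID with HEKsite2 against nCas9, 54% of genes given the smallest change were recovered, so small differences may have been missed. Only 200 genes were changed there, while 2794 fell and 3138 rose in the data. The share recovered may therefore differ in the data and in other comparisons.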
